A study of Mus musculus with 12 samples.

Results

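The genes described here encode the fibroblast growth factors (FGFs), their receptors and the regulators that FGF signalling induces to restrain or relay itself. They were chosen by symbol from the GENCODE M21 annotation of the mouse genome (GRCm38) as all numbered Fgf genes, the Fgfr, Spry and Spred genes, Dusp4, Dusp6, Etv4 and Etv5, which gave 37 of 22028 protein-coding genes. A peak, that is a stretch of open chromatin (502 bp wide in the sets of the instruments, and up to 1797 bp in those of the cell types used later), was assigned to a gene if it overlapped the gene body extended by 5 kb on each side. This gave 216 of 91354 peaks on the BGI instrument and 221 of 87027 on the Illumina instrument. The rule uses names and positions only, though it was drawn up with earlier results of these data known. An annotated Fgfr2 transcript of 2960.9 kb that spans many other genes was set aside; with it there would be 386 BGI peaks, 179 open more in mESCs and 140 open more in MEFs.

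Chromatin accessibility was measured with Omni-ATAC-seq, in which the Tn5 transposase inserts sequencing adapters where DNA is open. Fibroblasts from mouse embryos (MEFs), sorted as Thy1+, were compared with embryonic stem cells of the mouse (mESCs), sorted as Thy1-/Ssea1+/Epcam+, both of C57/Bl6 background, and the labels name no treatment. Each of 6 libraries (MEF 1, 2 and 4, and mESC 1, 3 and 5) was read by an Illumina HiSeqX10 and by a DNBSEQ-G400 of BGI, which made 12 samples in 4 groups of 3. The methods call the libraries biological replicates, but the sources do not say whether they came from separate cultures or embryos, so that p-values measure the spread between these libraries only.

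FGFs are secreted proteins that bind receptor tyrosine kinases together with heparan sulphate and activate the RAS and ERK cascade. In mouse embryonic stem cells FGF4 is the main ligand of this cascade and its signal moves cells towards differentiation, whereas FGF2, FGF7 and FGF10 are well known as products of fibroblasts and other mesenchymal cells. ERK activity induces the ETS transcription factors ETV4 and ETV5 as well as the Sprouty, Spred and DUSP proteins, which act back on the cascade.

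Stretches from the peaks in which FGF loci differed most are shown first, from the GRCm38 reference in lower case with the motif match in capitals. They lie in peaks with the largest differences between mESCs and MEFs, and the Fgf4 3′ UTR was added as 1 of the 2 peaks of FGF genes with a SOX-OCT match. Motifs were searched on both strands as the SOX-OCT composite (TTGT, a gap of up to 4 letters, then ATGCNAA), the OCT octamer ATGCAAAT, the ESRRB motif TCAAGGTCA and the AP-1 motif TGANTCA, and KLF (CCACNCCC), TEAD (ACATTCC) and ETS (ACCGGAAGT) motifs were searched but are not shown.
Fgf4 3′ UTR, chr7:144864388-144864417, plus strand, SOX-OCT composite: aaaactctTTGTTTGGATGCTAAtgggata
Fgf4 3′ UTR, chr7:144864658-144864687, minus strand, ESRRB: gatcagaaatTCAAGGTCAtctttagtgac
Etv4 5′ flank, chr11:101787628-101787707, plus strand, OCT octamer: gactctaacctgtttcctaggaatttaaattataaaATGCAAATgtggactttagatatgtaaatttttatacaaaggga
Etv5 exon, chr16:22413026-22413105, plus strand, ESRRB: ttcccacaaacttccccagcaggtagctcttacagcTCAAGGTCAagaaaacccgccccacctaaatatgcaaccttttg
Fgf14 intron, chr14:124329677-124329756, minus strand, OCT octamer: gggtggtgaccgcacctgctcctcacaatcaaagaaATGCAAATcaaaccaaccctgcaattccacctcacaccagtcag
Fgf4 intron, chr7:144857342-144857421, plus strand, AP-1: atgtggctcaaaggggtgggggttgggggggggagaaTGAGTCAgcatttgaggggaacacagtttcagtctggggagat
Fgf7 intron, chr2:126065647-126065726, plus strand, AP-1: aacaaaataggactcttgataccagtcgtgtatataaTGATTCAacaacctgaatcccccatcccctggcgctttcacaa
Fgf2 5′ flank, chr3:37346443-37346522, plus strand, AP-1: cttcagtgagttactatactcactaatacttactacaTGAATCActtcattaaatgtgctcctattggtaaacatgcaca
Fgf12 intron, chr16:28726887-28726966, plus strand, AP-1: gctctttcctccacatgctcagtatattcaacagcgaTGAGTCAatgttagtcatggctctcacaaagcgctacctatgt
Fgfr2, near the start of the gene, chr7:130263027-130263078, plus strand, AP-1: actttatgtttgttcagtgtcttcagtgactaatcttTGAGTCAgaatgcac
The stretches from Fgf4, Etv4, Etv5 and Fgf14 lie in peaks that were higher in mESCs, and those from Fgf7, Fgf2, Fgf12 and Fgfr2 in peaks that were lower. An AP-1 match is thus shown from peaks of both directions. Peaks with large differences but none of the searched motifs are not shown. They include the Fgf4 intron peak with the highest log2 fold change and peaks of Fgfr4, Fgf2, Fgf7, Fgf10 and Fgf5.

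Reads in peaks ranged from 15860985 to 21662775 over the BGI samples and from 15996202 to 21441767 over the Illumina samples, and levels are counts per 1000000 of these reads (CPM). Promoter peaks (within 1 kb of a transcription start site, TSS) of 8 stem cell marker genes were all higher in mESCs on BGI, and those of 7 of 8 fibroblast marker genes were lower, the exception being Pdgfra (log2 fold change 0.08). Summed over the stem cell markers, MEF libraries held 27.4 to 31.0 CPM and mESC libraries 199 to 238 CPM, and over the fibroblast markers 224 to 261 CPM and 74.3 to 82.5 CPM. Thy1 and Epcam, which are among the markers, were also used to sort the cells. In such bulk samples a peak open in fewer cells and a peak less open in every cell cannot be told apart.

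The comparison of cell types asks where the chromatin of FGF genes is open in pluripotent cells and where in fibroblasts. Fgf4 was the most one-sided locus open in mESCs, and Fgf7 and Fgf2 were those open in MEFs. At most other genes peaks changed in both directions (21 of the 35 genes with a peak on BGI). This was not counted over all genes, so it cannot be called particular to FGF genes. Of the 216 peaks on BGI, 109 were higher in mESCs at an adjusted p under 0.05 (edgeR, quasi-likelihood test), against 40.9% of all peaks. A further 60 were lower, against 43.2% of all peaks, and 47 did not pass the test. Of the higher peaks 90 were on the deposited list of reproducible mESC peaks only, and of the lower peaks 42 on that of MEFs only. Most called peaks thus entered the merged set through the cell type in which they are more open, which partly fixes their direction. These lists were not counted over all peaks. The median log2 fold change was 0.37 over the peaks of FGF genes and -0.08 over all peaks. On Illumina, 112 of 221 peaks were higher, against 42.1% of all peaks, and 62 were lower, against 42.4%. Of the 216 BGI peaks, 197 had an Illumina peak overlapping by at least 50%, of which 97 were higher on both instruments, 53 were lower on both and 0 were called in opposite directions. Both instruments read the same libraries, and this match was not counted over all peaks.

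Summed over the peaks of each gene, 19 of 35 genes were higher in mESCs on BGI, against 35.4% of all genes with a peak. A further 8 were lower, against 40.4% of all genes, and 8 did not pass the test. On Illumina, 20 of 36 genes were higher, against 35.1% of all genes, and 9 were lower, against 40.7%. The sums of Fgf1, Fgf12, Fgf18 and Fgfr1 were lower by small amounts (-0.23, -0.28, -0.26 and -0.27 on the log2 scale). These calls were lost when library sizes were set to the depth to which the reads had been down-sampled (-0.09, -0.13, -0.12 and -0.13), a scaling that moved the median of all BGI peaks from -0.08 to 0.06. Under it the genes lower in mESCs numbered 4 on BGI and 3 on Illumina.

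**Figure D1:**
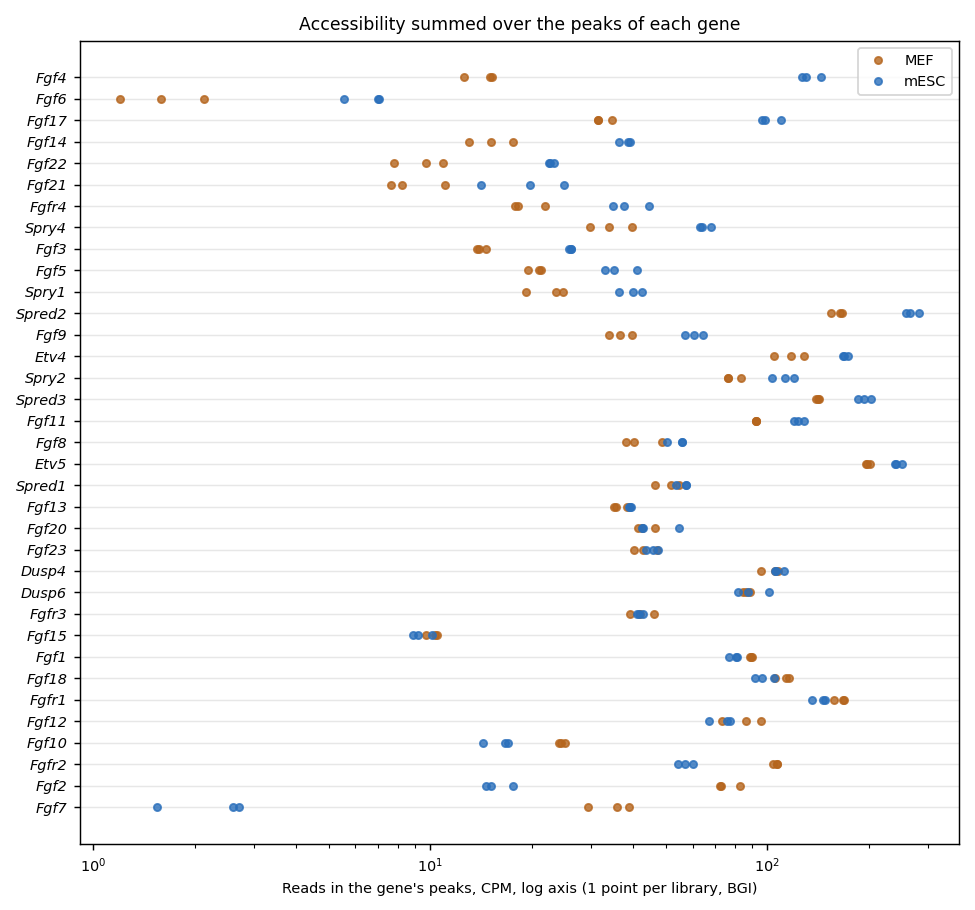
Reads in the peaks of each of the 35 genes with a peak on BGI, in CPM on a log axis, with 1 point per MEF or mESC library and genes ordered by log2 fold change. Fgf4 at the top and Fgf7 and Fgf2 at the bottom have the widest gaps between the cell types, whereas the points of Dusp4, Dusp6 and Fgfr3 overlap.

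Below, values are in CPM on BGI in the order MEF 1, 2 and 4 and then mESC 1, 3 and 5, and errors of log2 fold changes are standard errors. Of the FGF4 subfamily, Fgf4 itself had 9 peaks, all higher in mESCs on both instruments. Their sum was 12.6, 15.3 and 15.1 CPM in MEFs and 130.3, 144.4 and 126.7 CPM in mESCs. The groups were far apart, with a log2 fold change of 3.16 ± 0.09 (edgeR adjusted p = 6.01e-22) and 3.13 on Illumina.

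GENCODE gives Fgf4 a second coding start (chr7:144847367) upstream of the usual one (chr7:144861386), and some of the largest differences lay between these starts. A peak there (chr7:144857865-144858366) held 0.231, 0.746 and 0.797 CPM in MEFs and 20.1, 26.6 and 17.2 CPM in mESCs. It was nearly closed in MEFs, and its log2 fold change of 5.11 ± 0.29 (edgeR adjusted p = 3.26e-11) was the highest of the 216 peaks. Its neighbour with the AP-1 match printed above (chr7:144857078-144857579) held 0.646, 0.795 and 0.548 CPM in MEFs and 16.1, 18.2 and 15.03 CPM in mESCs (4.55 ± 0.23). The peak at the usual start held 1.48, 1.74 and 3.73 CPM in MEFs and 29.2, 30.7 and 29.3 CPM in mESCs (3.62 ± 0.22).

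The 3′ UTR of Fgf4, known to hold its stem cell enhancer with adjoining SOX and OCT sites, was covered by a peak at chr7:144864234-144864735. Its values were 2.35, 2.09 and 1.29 CPM in MEFs and 14.9, 18.04 and 13.1 CPM in mESCs. The groups did not overlap, with a log2 fold change of 2.93 ± 0.23 (edgeR adjusted p = 1.86e-09) and 3.47 on Illumina. The SOX-OCT match printed above is 82.0 bases from the centre of this peak, and such a match was present in 0.656% of all BGI peaks.

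Fgf5, a ligand that rises as stem cells leave the naive state, had peaks of both kinds. An intron peak 1.77 kb from its start held 1.71, 1.39 and 1.99 CPM in MEFs and 12.9, 17.0 and 14.4 CPM in mESCs (3.05 ± 0.21), and a neighbouring peak overlaps it and shares its reads. A peak downstream of the gene went the other way, with 5.91, 4.52 and 6.87 CPM in MEFs and 0.441, 0.473 and 0.186 CPM in mESCs (-4.01 ± 0.38). The promoter peak was lower in mESCs (-0.53 ± 0.19; edgeR adjusted p = 0.0141), but did not pass without MEF 1 (-0.42), MEF 2 (-0.39) or mESC 5 (-0.47). As a sum Fgf5 was higher on BGI (0.75 ± 0.11), where 2 peaks share reads, and did not pass the test on Illumina (0.14; edgeR adjusted p = 0.336). Fgf6, a muscle ligand, had a single intron peak that was higher in mESCs (1.93 ± 0.27), and with flanks of 20 kb the sums of Fgf5 (0.12) and Fgf6 (0.14) did not pass.

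Of the FGF1 subfamily, Fgf2 was the reverse of Fgf4. This broadly acting ligand had 7 peaks on BGI, all lower in mESCs, and their sum was 72.5, 73.0 and 83.1 CPM in MEFs and 15.2, 14.6 and 17.6 CPM in mESCs (-2.34 ± 0.09; edgeR adjusted p = 6.32e-19). The difference was uneven along the gene. An intron peak (chr3:37370361-37370862) held 10.6, 11.1 and 9.26 CPM in MEFs and 0.189, 0.118 and 0.435 CPM in mESCs (-5.42 ± 0.34). The 5′ flank peak with the AP-1 match printed above was lower as well (-4.97 ± 0.37). The promoter peak was still open in mESCs, with 13.7, 15.2 and 16.9 CPM in MEFs and 6.05, 6.62 and 6.77 CPM in mESCs (-1.30 ± 0.15). The peak downstream of the gene differed least (-0.48 ± 0.21; edgeR adjusted p = 0.0409) and did not pass on Illumina.

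Fgf1, a ligand of all FGF receptors, had 12 peaks, with 5 higher in mESCs and 6 lower. Its highest promoter peak held 17.1, 17.5 and 16.6 CPM in MEFs and 7.94, 9.93 and 9.32 CPM in mESCs (-0.98 ± 0.14). A peak downstream of the gene was lower (-4.19 ± 0.26), whereas an intron peak 25.4 kb from the first start was higher (3.40 ± 0.30). Without the 5 kb flanks the sum over Fgf1 changed sign, from -0.23 to 0.31 (edgeR adjusted p = 0.000415).

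The FGF7 subfamily contained the other locus open in MEFs. Fgf7, a mesenchymal growth factor for epithelium, had 3 peaks, all lower in mESCs on both instruments, with a sum of 35.9, 29.5 and 38.9 CPM in MEFs and 2.71, 2.60 and 1.55 CPM in mESCs (-3.98 ± 0.17; edgeR adjusted p = 4.21e-18). An intron peak 31.0 kb from the start (chr2:126065402-126065903) held 19.5, 15.1 and 17.5 CPM in MEFs and 0.441, 0.473 and 0.186 CPM in mESCs. Its log2 fold change of -5.60 ± 0.27 was the lowest of the 216 peaks. Unlike at Fgf2, the main promoter peak was also close to 0 in mESCs, with 10.8, 10.04 and 14.6 CPM in MEFs and 0.441, 0.769 and 0.311 CPM in mESCs (-4.58 ± 0.30).

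Fgf10, a mesenchymal ligand of limb and lung, was lower as a sum (-0.68 ± 0.11; edgeR adjusted p = 5.2e-06), a difference that was smaller on Illumina (-0.23 ± 0.10; edgeR adjusted p = 0.0397). Its promoter peak was lower on both instruments (-0.73 ± 0.18 on BGI and -0.59 on Illumina), but a second promoter peak, called only on Illumina and the higher of the pair there, was higher in mESCs (0.49 ± 0.17; edgeR adjusted p = 0.014). The intron peaks differed in direction. One (chr13:118736580-118737081) held 6.23, 7.80 and 3.24 CPM in MEFs and 0.315, 0.237 and 0.248 CPM in mESCs (-4.47 ± 0.44). Another (chr13:118705738-118706239) held 0.369, 0.199 and 0.896 CPM in MEFs and 9.96, 10.1 and 6.77 CPM in mESCs (4.12 ± 0.37). Fgf22, a ligand with a role at synapses, had 1 promoter peak, which was higher in mESCs (1.20 ± 0.14), but with flanks of 20 kb the sum was lower (-0.31). Fgf3, the neighbour of Fgf4, was higher as a sum (0.81 ± 0.11), with 1 of its 3 peaks shared with the upstream start of Fgf4, while its highest promoter peak did not pass the test (0.13; edgeR adjusted p = 0.436).

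The ligands of the FGF8 subfamily, which pattern the embryo, differed in direction. Fgf17 held 31.5, 31.4 and 34.6 CPM in MEFs and 96.2, 98.2 and 109.6 CPM in mESCs over 7 peaks, 6 of them higher (1.57 ± 0.08; edgeR adjusted p = 6.49e-17). The largest of these differences were past its 3′ end at promoters of the neighbouring gene Dmtn (3.56 and 2.62), so that the sum is not that of Fgf17 alone. Fgf8 was slightly higher (0.29 ± 0.09, and 0.50 on Illumina), but not without the flanks (-0.10) or with flanks of 20 kb (0.01). Its highest promoter peak on BGI did not pass the test (-0.21 ± 0.18), while the neighbouring promoter peak was higher on both instruments (1.27 ± 0.22 on BGI and 1.30 on Illumina). Fgf18 had a main promoter peak that was open in both cell types, with 39.4, 36.5 and 33.7 CPM in MEFs and 44.1, 41.4 and 36.8 CPM in mESCs (0.09; edgeR adjusted p = 0.418), and 3 lower peaks inside the gene (-0.57 to -1.61).

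Of the FGF9 subfamily, Fgf9 was higher as a sum (0.66 ± 0.08), most at an intron peak 31.0 kb from its start (2.81 ± 0.29), with a smaller difference at its highest promoter peak (0.56 ± 0.13). Fgf20 did not pass as a sum on BGI (0.04 ± 0.09) and was lower on Illumina (-0.19; edgeR adjusted p = 0.0201). The main Fgf20 promoter peak, which is shared with Micu3, did not pass the test on BGI (-0.11 ± 0.11) and was lower on Illumina (-0.25 ± 0.09). Fgf16 had a peak only in the Illumina set, at its promoter with a GC content of 73.1%. There the Illumina samples held 4.06, 3.63 and 3.003 CPM in MEFs and 9.13, 9.32 and 9.24 CPM in mESCs (1.32 ± 0.20; edgeR adjusted p = 3.55e-07 as the sum of the gene). The BGI samples held 1.89, 1.79 and 2.04 CPM and 5.32, 4.98 and 6.19 CPM over the same stretch. Both instruments thus had mESCs above MEFs, and each library had the lower value on BGI.

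The endocrine ligands circulate and act on bile acids, metabolism and phosphate. Fgf15, also next to Fgf4, had a single promoter peak that did not pass the test, at 10.5, 9.74 and 10.3 CPM in MEFs and 9.20, 8.87 and 10.1 CPM in mESCs (-0.18 ± 0.15). Fgf21 was higher (1.06 ± 0.17), at 2 peaks that are both also promoter peaks of Fut1, 1 of them at its own promoter (1.04 ± 0.20). Fgf23 had 2 higher peaks and 1 lower, and its sum did not pass (0.01 ± 0.08), though its promoter peak was higher (0.37 ± 0.11).

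The FGF homologous factors stay inside the cell and bind sodium channels, and their long genes held scattered sites. Fgf14 was higher as a sum (1.24 ± 0.11; edgeR adjusted p = 4.27e-11). One of its intron peaks (chr14:124033186-124033687) held 0.369, 0.249 and 0.249 CPM in MEFs and 7.94, 7.45 and 6.21 CPM in mESCs (4.53 ± 0.34), and the one printed above held 0.0920, 0.696 and 0.797 CPM and 9.39, 10.5 and 9.88 CPM (4.17 ± 0.36). The peak at the first start of Fgf14 was lower in mESCs (-1.95 ± 0.26), and one at an internal start was higher (1.67 ± 0.20).

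In Fgf12 the intron peak with the AP-1 match printed above held 7.94, 7.90 and 8.76 CPM in MEFs and 0.252, 0.473 and 0.248 CPM in mESCs (-4.68 ± 0.32). Its main promoter peak did not pass the test (-0.05 ± 0.13). Fgf13, on the X chromosome, had intron peaks of both kinds (4.11 ± 0.37 and -3.15 ± 0.36) and a sum that did not pass (0.04 ± 0.09). Its highest promoter peak did not pass on BGI (-0.27 ± 0.14) and was lower on Illumina (-0.50 ± 0.15). Fgf11 was higher (0.36 ± 0.06), with the largest difference at a peak in its 5′ flank that is also a promoter peak of Tmem102 (3.27 ± 0.25), while its highest promoter peak did not pass (-0.13 ± 0.13). The sum also takes in a promoter peak of Chrnb1 past the 3′ end of the gene, so that it is not that of Fgf11 alone.

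**Figure D2:**
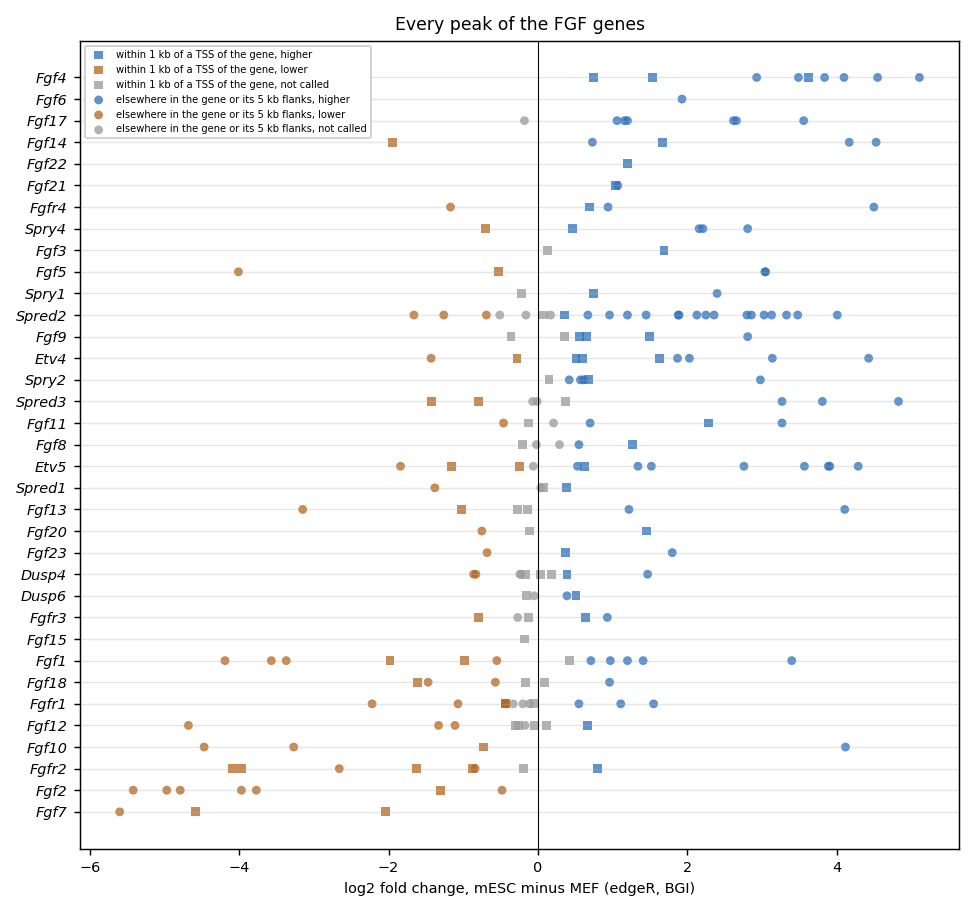
Log2 fold change (mESC minus MEF, edgeR, BGI) of each of the 216 peaks, by gene, with squares for peaks within 1 kb of a TSS of the gene and circles for the others, coloured by call. Fgf4 has points on the right only and Fgf2 and Fgf7 on the left only, while most genes have points on both sides, with circles reaching farther from 0 than squares.

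The receptors carry the kinase domain. Of their 29 peaks on BGI, 13 were lower (44.8%, against 43.2% of all peaks) and 9 were higher (31.0%, against 40.9%). Fgfr2 held 103.7, 106.7 and 106.5 CPM in MEFs and 60.3, 57.1 and 54.5 CPM in mESCs (-0.95 ± 0.07; edgeR adjusted p = 6.76e-13), and 6 of its 8 peaks lower. Its main promoter peak was open in both cell types, at 29.5, 28.4 and 29.0 CPM in MEFs and 28.4, 27.4 and 24.1 CPM in mESCs (-0.19 ± 0.10; edgeR adjusted p = 0.0993), though called lower on Illumina (-0.28). A peak 3.44 kb further into the gene (chr7:130262577-130263078) held 21.3, 17.9 and 12.8 CPM in MEFs and 1.26, 1.12 and 0.808 CPM in mESCs (-4.09 ± 0.25). A peak 98.8 kb from the start, at an internal non-coding transcript, was lower by a similar amount (-3.97 ± 0.29).

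Fgfr4 was higher in mESCs (0.94 ± 0.11), above all at an exon peak (chr13:55166853-55167354) with 0.415, 1.09 and 0.797 CPM in MEFs and 23.1, 16.2 and 15.4 CPM in mESCs (4.50 ± 0.27). Its promoter peak was also higher (0.69 ± 0.19), and a downstream peak was lower (-1.17 ± 0.22). Fgfr1 had 12 peaks, of which 3 were higher and 5 lower, and its highest promoter peak was lower (-0.43 ± 0.10; edgeR adjusted p = 0.000607). Fgfr3 did not pass as a sum (-0.08 ± 0.08) or at its highest promoter peak (-0.13 ± 0.13), and the second peak with a SOX-OCT match lay near its start and was lower in mESCs (-0.80 ± 0.19).

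Of the feedback inhibitors, the Sprouty genes, whose products act between receptor and RAF, were higher in mESCs as sums on both instruments wherever they had peaks. Of their 14 peaks on BGI, 11 were higher (78.6%, against 40.9% of all peaks), 1 was lower (7.14%, against 43.2%) and 2 did not pass. Spry1 was higher as a sum (0.75 ± 0.10), mainly through a peak over an exon with 3.001, 2.88 and 3.83 CPM in MEFs and 16.9, 18.7 and 17.9 CPM in mESCs (2.40 ± 0.17), while its main promoter peak did not pass (-0.22 ± 0.16) and was lower on Illumina (-0.31 ± 0.13). Spry2 showed the same order (0.44 ± 0.07), with a peak 4.16 kb upstream at 0.969, 0.447 and 0.996 CPM in MEFs and 9.21, 5.97 and 4.91 CPM in mESCs (2.98 ± 0.35) and a main promoter peak that did not pass (0.15 ± 0.09). Spry4 was higher as a sum (0.85 ± 0.09, and 0.51 on Illumina), with an exon peak (2.81 ± 0.27) and a pair of upstream peaks (2.16 and 2.21) higher. Its promoter had no single direction. On BGI the highest promoter peak was higher (0.46 ± 0.13; edgeR adjusted p = 0.00395) and the other was lower (-0.70 ± 0.17; edgeR adjusted p = 0.00106). On Illumina, where the promoter peaks have other bounds, the highest was lower (-0.50 ± 0.10; edgeR adjusted p = 0.000247), and Illumina reads over the highest BGI peak did not pass (0.12; edgeR adjusted p = 0.311). Spry3, on an unplaced scaffold, had no peak in either set. MACS2 summits over the gene numbered 2 to 3 in each MEF sample and 0 to 1 in each mESC sample, with 0 at the promoter in 12 of 12 samples.

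The Spred genes encode membrane-bound inhibitors of RAF activation. Spred2 held the most peaks of any gene here, 24, of which 17 were higher, 3 lower and 4 not called. Its sum was 164.0, 154.4 and 166.6 CPM in MEFs and 282.5, 257.0 and 264.5 CPM in mESCs (0.66 ± 0.06; edgeR adjusted p = 4.9e-11). The main promoter peak did not pass on BGI (0.08 ± 0.10) and was higher on Illumina (0.32 ± 0.12; edgeR adjusted p = 0.0176), and the largest difference was at an intron peak 61.1 kb from the start, with 0.692, 0.547 and 0.896 CPM in MEFs and 13.9, 10.3 and 12.3 CPM in mESCs (4.01 ± 0.25).

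Spred3 was higher as a sum (0.40 ± 0.06) but held large differences of both signs. A peak over an exon (chr7:29162608-29163109) had 2.31, 1.79 and 0.797 CPM in MEFs and 45.2, 51.9 and 50.7 CPM in mESCs (4.83 ± 0.20; edgeR adjusted p = 1.17e-12), and one downstream was also higher (3.81 ± 0.17). Both peaks at its first start, which touch each other and are also promoter peaks of Ggn, were lower (-0.79 and -1.43). Spred1 did not pass on BGI (0.08 ± 0.08) and was higher on Illumina (0.33; edgeR adjusted p = 0.000168), and without the flanks its BGI sum was lower (-0.38). Its highest promoter peak did not pass (0.08 ± 0.13).

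The DUSP phosphatases remove the activating phosphates of ERK and related kinases. Of their 13 peaks on BGI, 4 were higher (30.8%, against 40.9% of all peaks), 2 were lower (15.4%, against 43.2%) and 7 did not pass. Dusp6 held 84.6, 86.2 and 89.0 CPM in MEFs and 87.6, 101.1 and 81.7 CPM in mESCs, and the groups overlapped (-0.01 ± 0.08; edgeR adjusted p = 0.936). Its promoter peak did not pass (-0.15 ± 0.10). Dusp4 overlapped as well, with 105.5, 96.0 and 107.2 CPM in MEFs and 105.7, 111.9 and 105.1 CPM in mESCs (-0.00 ± 0.07; edgeR adjusted p = 0.976), although an intron peak 7.41 kb from its start was higher (1.47 ± 0.19). Its highest promoter peak did not pass (-0.17 ± 0.11).

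The ETS factors ETV4 and ETV5 are transcriptional targets of FGF signalling. Of their 22 peaks on BGI, 16 were higher in mESCs (72.7%, against 40.9% of all peaks), 5 were lower (22.7%, against 43.2%) and 1 did not pass. Etv5 was higher as a sum, with 202.1, 195.8 and 198.0 CPM in MEFs and 238.3, 250.6 and 240.7 CPM in mESCs (0.23 ± 0.06; edgeR adjusted p = 0.00089). This small value combined a promoter peak that was slightly lower, at 103 ± 2.98 CPM in MEFs and 90.9 ± 11.5 CPM in mESCs (SD, n = 3 each; -0.25 ± 0.09), with a group of 4 intron and exon peaks that were nearly closed in MEFs (3.57 to 4.29). The promoter call was lost without MEF 1 (-0.21), MEF 2 (-0.22), mESC 1 (-0.19) or mESC 5 (-0.19). The exon peak with the ESRRB match printed above held 0.415, 0.596 and 1.10 CPM in MEFs and 15.2, 13.8 and 14.1 CPM in mESCs (4.29 ± 0.26). An intron peak near the 3′ end was lower, at 31.6, 29.4 and 25.9 CPM in MEFs and 8.83, 7.51 and 9.13 CPM in mESCs (-1.84 ± 0.13).

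Etv4 had the same pattern (0.47 ± 0.07 as a sum). The peak 2.34 kb upstream with the octamer printed above held 0.369, 0.497 and 0.697 CPM in MEFs and 12.2, 12.5 and 10.9 CPM in mESCs (4.43 ± 0.27), and the next peak towards the gene was higher too (3.14 ± 0.23). The main promoter peak was lower (-0.28 ± 0.09), a call that was lost without MEF 1 (-0.18) and on Illumina (-0.17).

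**Figure D3:**
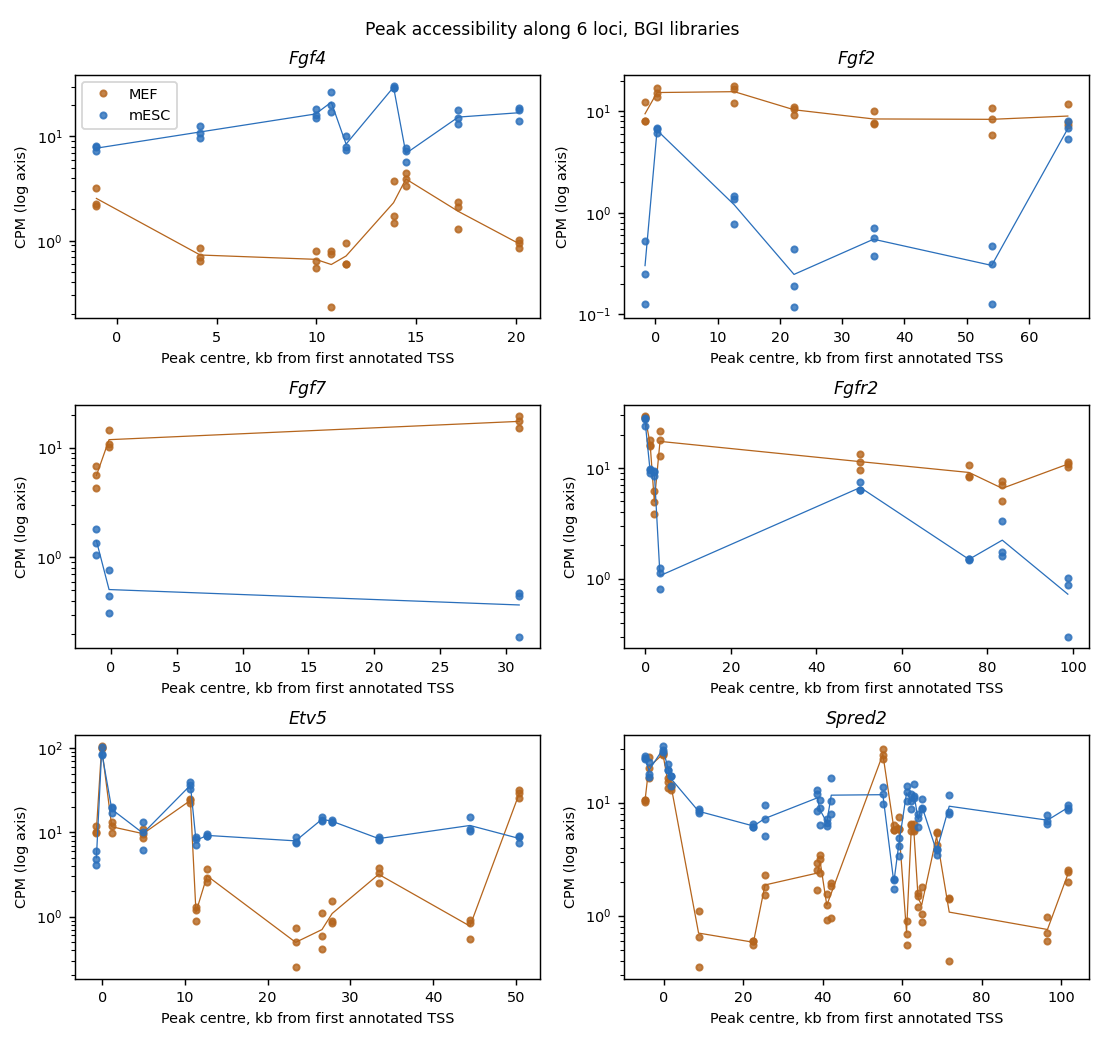
CPM on a log axis of each peak on BGI against the distance of its centre from the first annotated TSS, in kb, for Fgf4, Fgf2, Fgf7, Fgfr2, Etv5 and Spred2, with 1 point per library and a line through the mean of each cell type. At Fgf4 and Fgf7 the cell types stay apart along the whole locus, whereas at Fgfr2, Etv5 and Spred2 they meet at the start of the gene and part inside it.

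The highest promoter peak of each of 33 genes was higher in mESCs for 8, lower for 9 and not called for 16 on BGI, with a median log2 fold change of -0.13 and a range from -4.58 (Fgf7) to 3.62 (Fgf4). Over the 15130 protein-coding genes with a promoter peak, 22.4% were higher and 43.9% were lower, with a median of -0.18. Of the 129 peaks of FGF genes at no promoter of a protein-coding gene, 76 were higher (58.9%) and 37 were lower (28.7%), with a median of 0.93. Over all such peaks 45.5% were higher and 44.0% were lower, with a median of 0.04. On Illumina, the highest promoter peak was higher for 10 of 34 genes, against 22.8% of all genes, and lower for 13, against 45.6%. There, 71 of 124 peaks at no promoter were higher, against 47.5% of all such peaks, and 35 were lower, against 42.2%. These counts describe the same libraries and were not tested against each other.

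The printed motifs were counted over all peaks for comparison. The SOX-OCT composite was present in 1 of the 109 higher peaks of FGF genes (0.917%) and in 1 of the 60 lower ones (1.67%), against 1.04% of all higher and 0.403% of all lower peaks. The octamer was present in 10 of 109 (9.17%) and 1 of 60, against 4.81% of all higher peaks and 3.21% of all peaks. The ESRRB motif was present in 5 of 109 (4.59%) and 0 of 60, against 2.47% of all higher peaks and 1.42% of all peaks. The AP-1 motif was present in 9 of 109 (8.26%) and 20 of 60 (33.3%), against 18.6% of all higher peaks, 35.6% of all lower peaks and 25.2% of all peaks. Of the motifs not shown, TEAD was present in 10.1% of the higher and 8.33% of the lower peaks of FGF genes, against 9.39% of all higher and 14.9% of all lower peaks. KLF was present in 24.8% and 21.7%, against 29.4% and 20.7%, and ETS in 0 of 109 and 1 of 60, against 0.399% and 0.428%. The shares rest on few peaks, were not tested and do not show that a factor was bound.

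Other genes of the pathway, 46 adaptors, cascade members, co-receptors and binding proteins, heparan sulphate genes, and further DUSP and ETS genes, were counted in the same way. On BGI, 16 were higher in mESCs (34.8%, against 35.4% of all genes), 19 were lower (41.3%, against 40.4%) and 11 did not pass, with a median log2 fold change of -0.13. Both shares were near those over all genes. The smallest adjusted p belonged to Rps6ka1, an ERK-activated kinase (1.12 ± 0.07; edgeR adjusted p = 1.81e-14), and Flrt2, a membrane protein that binds FGF receptors (-1.28 ± 0.08; edgeR adjusted p = 5.7e-14). Of the 8 heparan sulphate genes, 5 were lower (62.5%, against 40.4% of all genes) and 2 were higher (25.0%, against 35.4%), with a median of -0.42. Among them Ext1, which builds the chain, was lower (-0.85 ± 0.06), and Hs6st1, which sulphates it, was higher (1.0 ± 0.07).

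The same libraries were also compared between instruments, on peak sets called over both instruments for each cell type, which asks whether the reading of these loci depends on the sequencer. In MEFs, 8 of 140 peaks of FGF genes were called, against 4.06% of all peaks, all of them lower on BGI. Over all MEF peaks 0.107% were higher and 3.96% were lower. In mESCs, 6 of 186 were called, against 3.23% of all peaks, again all lower on BGI. Over all mESC peaks 0.0418% were higher and 3.19% were lower. With the library as a block, since each library was read on both instruments, 49 peaks were called in MEFs (11 higher and 38 lower on BGI), against 29.2% of all peaks (13.9% higher and 15.3% lower). In mESCs 50 were called with the block (4 higher and 46 lower), against 21.3% of all peaks (5.78% higher and 15.6% lower). Without the block, 0 peaks were called in MEFs when MEF 1 or MEF 2 was left out (20 and 15 at an unadjusted p under 0.05, edgeR) and 21 without MEF 4, and in mESCs 0 were called without mESC 1 or mESC 5 (27 and 20 unadjusted) and 3 without mESC 3.

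Without the block, 3 peaks were called in both cell types, at Spry1, Spry2 and Dusp6. With the block 27 MEF peaks overlapped an mESC peak that was also called, at 20 genes, of which 26 were lower on BGI in both cell types and 1 was higher. Neither overlap was counted over all peaks, so they cannot be set apart from the pattern of all peaks. At the Spry1 promoter (GC content 75.9%) the MEF libraries held 6.33, 5.21 and 5.81 CPM on BGI and 11.2, 10.2 and 13.9 CPM on Illumina (-1.05; edgeR adjusted p = 0.0136, and 3.59e-12 with the block). At the Spry2 promoter (GC content 71.6%) they held 39.8, 41.4 and 41.0 CPM on BGI and 58.1, 62.9 and 62.2 CPM on Illumina (-0.61; edgeR adjusted p = 0.00481, and 3.31e-15 with the block). In every library both peaks were lower on BGI. GC content moved with the calls. Of the peaks with a GC content of at least 65%, 21 of 28 in MEFs and 31 of 34 in mESCs were lower on BGI with the block, against 78.7% and 79.3% of all such peaks (medians -0.38 and -0.32, against -0.33 and -0.32 over all such peaks). Between 50% and 65%, 14 of 70 in MEFs and 14 of 110 in mESCs were lower, against 11.9% and 10.3% of all such peaks. Below 50%, 3 of 42 and 1 of 42 were lower, against 0.627% and 1.14%. In this class more peaks were higher on BGI, 4 of 42 in MEFs and 2 of 42 in mESCs. Over all such peaks 5257 of 26953 in MEFs and 1925 of 22893 in mESCs were higher. Calls with a GC offset beside the block were not counted over all peaks. With this offset 28 peaks of FGF genes were called in MEFs and 19 in mESCs. Of these, 21 and 16 were also called with the block alone. The Spry1 and Spry2 promoter peaks were among these in MEFs (edgeR adjusted p = 0.000491 and 0.000313 with the offset) and in mESCs (edgeR adjusted p = 0.0149 and 0.00429). Other peaks called without the block were lost with the offset. In MEFs they were at Spred1, Fgfr2, Fgf18 and Fgf9 (edgeR adjusted p = 0.964, 0.83, 0.563 and 0.0608). In mESCs they were at Fgfr1 and Fgf8 (edgeR adjusted p = 0.862 and 0.595). The part of GC content in these calls was not tested further.

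**Figure D4:**
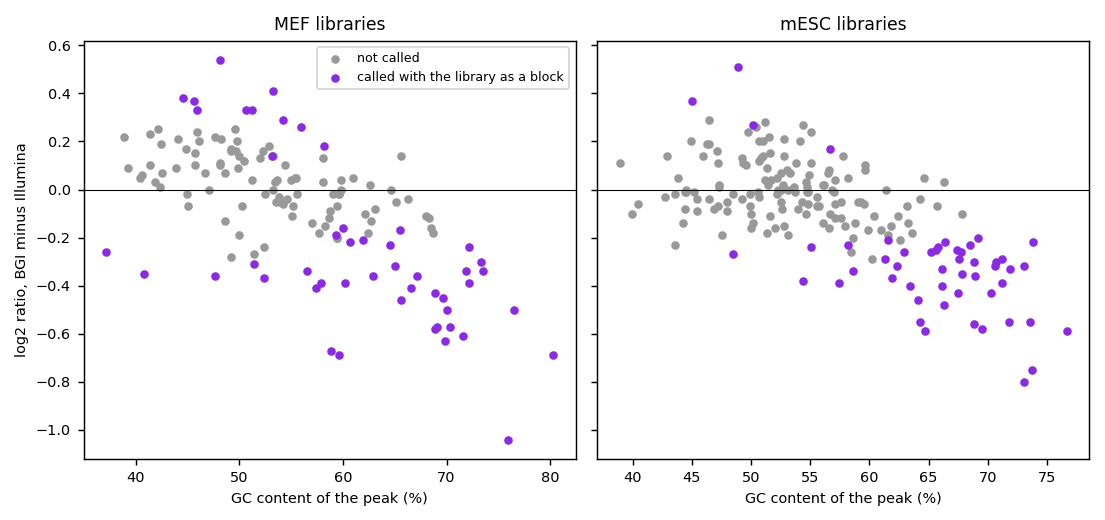
Log2 ratio of BGI to Illumina for each peak of the FGF genes (140 in MEFs on the left, 186 in mESCs on the right) against the GC content of the peak in percent, from edgeR with the library as a block, with called peaks in purple. Peaks with a GC content above 65% lie mostly below 0 in both cell types.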

How the data were processed

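Omni-ATAC-seq libraries of 3 MEF and 3 mESC replicates were each sequenced on both instruments. According to the methods, the authors trimmed reads to 100 bp, aligned them to GRCm38 (mm10) with Bowtie2, removed duplicate and mitochondrial reads, down-sampled to 60000000 (MEF) or 45000000 (mESC) reads and called peaks in each sample with MACS2. The deposited counts are raw reads per peak from subread, on 1 merged peak set per instrument and 1 per cell type. The deposited peak files of each sample hold the fold over background as a ratio and −log10 p-values from MACS2, of which the summit positions and −log10 p-values were used for genes with no merged peak. The deposited lists of reproducible peaks were used for positions only.

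Counts were tested with edgeR 4.0.16 in R 4.3.3 (TMM factors, filterByExpr, quasi-likelihood F test, two-sided, Benjamini-Hochberg over the whole table), and the fit was tested on simulated data. Counts per gene were summed over all peaks overlapping the gene body with 5 kb flanks. CPM were divided by reads in the peaks of the set used. DESeq2 (the tool the authors used, run here in version 1.42.0), RLE size factors, other filters, flanks and library sizes, the other instrument and leaving out each library were alternatives.

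Members, lists and tests were chosen with earlier results of these data known. Every gene with a peak was named by its sum and, where it had one, its promoter peak with the highest mean CPM on BGI. Peaks were named as the 10 highest and 10 lowest log2 fold changes on BGI, at most 2 per gene, among peaks called alike on Illumina with at least 5 CPM in the higher cell type. Other peaks in the text were chosen after their values were seen. Count columns without a platform in their name were taken as Illumina; as a check, the log2 ratio of the BGI column to this column was compared in each library with the log2 ratio of the labelled BGI to Illumina peak heights (Spearman's rho 0.757 to 0.799 across peaks, which are not independent; exchanged columns would give the same size with a negative sign). Replicate numbers on the instruments mark the same library, so they pair the samples: deviations from group means correlated at 0.618 to 0.837 (MEF) and 0.514 to 0.722 (mESC) within a library, and at -0.676 to 0.298 and -0.509 to -0.115 between libraries.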

Additional observations from a re-analysis of the deposited data

How the results depend on the processing

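All 240 alternative values of the 20 named peaks kept their direction and call. These peaks were chosen for the largest differences and for the same call on Illumina, so this was largely fixed by the choice. When calls also needed an absolute log2 difference of 1 or more, lower peaks numbered 38 rather than 60 on BGI and 35 rather than 62 on Illumina, and higher peaks 75 rather than 109 and 74 rather than 112. Another alternative, chosen after seeing the data, took Fgfr2 over its whole annotated body. Of 386 peaks on BGI 179 were then higher and 140 lower, and of 377 on Illumina 183 and 130. The balance moved as well, since lower peaks rose by a larger factor than higher ones on both instruments. With the down-sampled depth as library size, genes lower in mESCs numbered 4 rather than 8 on BGI and 3 rather than 9 on Illumina. Under this scaling the median log2 fold change over every BGI peak went from -0.08 to 0.06, and over every Illumina peak from -0.03 to 0.09. Leaving out 1 library gave 105 to 111 higher and 54 to 61 lower peaks on BGI, 100 to 109 and 58 to 66 on Illumina, and 6 to 10 lower genes on Illumina.

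No paired analysis was possible because MEF and mESC libraries share only number 1, for the comparison of cell types. Between instruments, the replicate block raised the called peaks from 8 to 49 in MEFs and from 6 to 50 in mESCs, and with a GC offset beside the block they were 28 and 19. DESeq2 called 18 of 116 peaks in MEFs. Leaving out 1 library without the block gave 0 to 21 in MEFs and 0 to 3 in mESCs. The cause of these changes was not tested.

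Of single values, 23 of 383 gene sums and 8 of 396 promoter peaks changed sign, 8 and 13 lost a call, and 3 and 10 gained one. Dusp4 was 0.04 under RLE factors, 0.14 at the down-sampled depth, 0.02 without flanks and -0.05 to 0.07 with 1 library left out. Dusp6 was 0.03 under RLE factors, 0.14 at that depth and -0.07 to 0.07 with 1 library left out. Without flanks Fgf1 was 0.31, Fgf8 -0.10, Fgf23 -0.17 and Spred1 -0.38. With flanks of 20 kb Fgf22 was -0.31, Fgf23 -0.36 and Spred1 -0.09. Leaving out 1 library gave -0.01 to 0.07 for Fgf23 (-0.00 without MEF 2) and -0.06 to 0.11 for Fgf20, and Fgfr3 was 0.06 at the down-sampled depth. Promoter peaks at that depth were 0.04 for Fgf20, 0.01 for Fgf11, 0.10 for Fgf12 and 0.01 for Fgfr3. On the other instrument Fgf11 was 0.07 and Fgf12 0.24, and leaving out 1 library gave -0.15 to 0.06 for Fgf12 and -0.03 to 0.16 for Spred1. With flanks of 20 kb the calls of Fgf5 (0.12), Fgf6 (0.14), Fgf8 (0.01) and Fgf18 (-0.13) were lost and those of Fgf15 (-0.64) and Fgf20 (0.25) gained. At the down-sampled depth the promoter calls of Fgf5 (-0.39), Etv4 (-0.14) and Etv5 (-0.10) were lost, and the Spred1 sum (0.22) and the Spry2 promoter (0.29) were called. The Spry2 promoter was also called by DESeq2 and under RLE factors (0.19 each). Without mESC 3 the promoter peaks of Fgf20 (-0.21), Dusp4 (-0.23) and Dusp6 (-0.21) were called. The cause was not tested.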
